A study of Pyrus ussuriensis with 15 samples.

Results

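Of 44681 gene models measured while adventitious roots formed on pear shoots, 41 had less mRNA on days 0 and 3 than on days 9 and 12, and a roughly level amount from day 9 to day 12. They were chosen by measured values among the 42812 models whose ID starts with Pbr. Low and high days are meant within each model, not against other models. In CPM (the read count of a model per 1000000 counts of its library), the mean of day 9 and the mean of day 12 each had to be at least 4 times that of day 0. The mean of day 3 had to lie under 2 times that of day 0, and the ratio of day 12 to day 9 between 0.5 and 2. Every library of days 9 and 12 had to lie above every library of days 0 and 3, and the day 9 mean had to reach 2 CPM. Levels on days 0, 3, 9 and 12 are therefore given as a description without a test. Day 6 was not used in the choice, but each comparison with day 6 has on its other side a day that was, and low values on days 0 and 3 and high values on days 9 and 12 favour a difference from day 6. Fold changes, p-values and counts of calls with day 6 describe these libraries, and no result about the members is read from a share above that of all models.

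The mRNA came from *Pyrus ussuriensis* Maxim, an Asian pear, with 3 libraries on each of day 0, 3, 6, 9 and 12. Buds kept in culture were subcultured for 25 days before rooting. For all 5 days, day 0 included, the labels give the tissue as adventitious roots and the same rooting medium on an MS base, with the auxin IBA (indole-3-butyric acid) at 0.5 mg/L, sucrose at 30 g/L, agar at 7.5 g and a pH of 6.0. The labels do not say that the replicates came from separate cultures, so what p-values measure here is spread among libraries that may be technical repeats.

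Adventitious roots arise from stem or shoot tissue. In the general account of the process, auxin leads cells near the vascular tissue to divide again, the dividing cells organise into a root primordium, and the primordium grows out and joins the vessels of the shoot. The table pairs no model with a gene name or a description and no table of names was used here, so the roles of the 41 members are not given and markers of shoot or root tissue were not looked up. The members are described by level, timing, coding length and position, and 4 of them are named by ID.

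Total counts ran from 11953240 to 17878524 per library. The day 6 libraries stood furthest apart, with Pearson's r of log2 CPM across genes from 0.939 to 0.948 between them, against 0.963 to 0.985 within the other days. Day 6 replicate 2 was closer to the day 3 libraries (mean r of 0.975) than to the other day 6 libraries (0.947). Replicate 1 was so by less (0.947 and 0.943), and replicate 3 was not (0.935 and 0.942). Counts of calls and of overlaps with day 6, and most fold changes of single models, are also given without replicate 2. Counts of calls are given without replicate 3 as well.

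The 41 members differed widely in abundance and shared the step between day 3 and day 9. The libraries were made from bulk tissue, so more mRNA per cell and more cells that hold the mRNA cannot be told apart. The median of their means was 1.04 CPM on day 0, 0.887 CPM on day 3, 6.69 CPM on day 9 and 7.29 CPM on day 12. Day 9 means ran from 2.34 to 2517 CPM and day 12 means from 1.73 to 3069.6 CPM. Day 9 stood at 4.08 to 13.6 times day 0 (median 5.70) and day 12 at 4.08 to 17.1 times (median 6.07). Applied in turn, the conditions left 21558 Pbr models at 2 CPM on day 9, of which 133 were also at least 4 times day 0 on both later days. The ratio of day 12 to day 9 left 97, the separation of libraries 67 and the limit on day 3 41. Among models that met all else, the smallest fold inside was 4.08 and the largest outside 3.98, with 1003 models below 4-fold. The largest ratio of day 3 to day 0 inside was 1.93 and the smallest outside 2.01, with 26 models outside. On the ratio of day 12 to day 9 these values were 1.97 and 3.04, on the lowest day 9 or 12 library over the highest day 0 or 3 library 1.25 and 0.786, and on the day 9 mean 2.34 and 1.63 CPM. Of the models without the Pbr prefix, 2 met the other conditions.

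**Figure D1:**
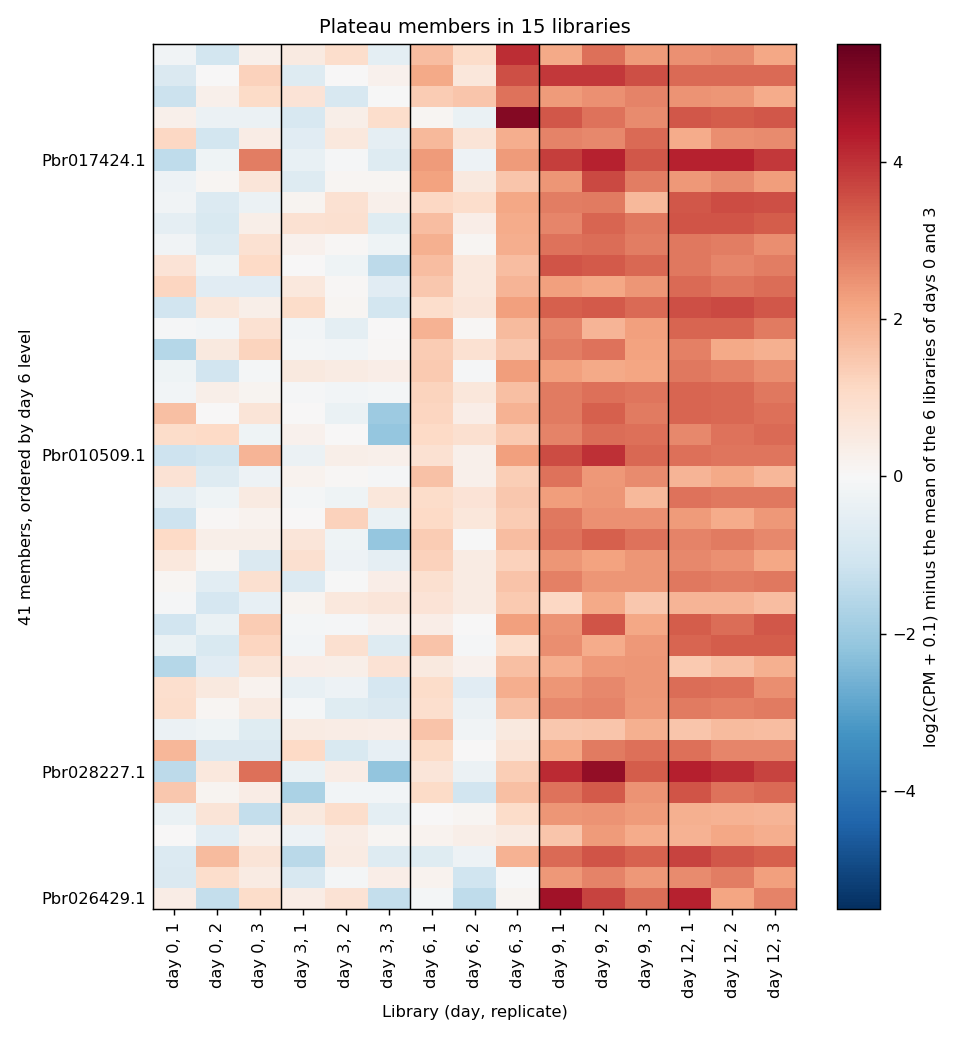
Levels of the 41 members (rows) in the 15 libraries (columns, by day and replicate), as log2(CPM + 0.1) minus each member's mean over the 6 libraries of days 0 and 3; red is higher and blue lower. Days 9 and 12 are red in all rows, day 6 replicate 2 is the lowest of the day 6 libraries in 37 rows, and day 0 replicate 3 is red for Pbr017424.1 (1213 CPM).

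Most members were sparse models at the start of the course. Summed over the 3 day 0 libraries, their counts ran from 8 upward with a median of 45, and 12 members had under 30. No member had a zero count in any library of day 0, day 9 or day 12. Per length, in FPKM (fragments per kilobase of model per 1000000 fragments, as deposited by the authors), the median member stood at 1.60 on day 0, 1.35 on day 3, 3.35 on day 6, 10.3 on day 9 and 12.6 on day 12. The median of all 29134 models tested was 9.12 FPKM on day 12 and 9.58 FPKM on day 0. Above the median of their day lay 7 members on day 0, 8 on day 3, 14 on day 6 and 23 on each of days 9 and 12. In the upper 10% of models by FPKM there was 1 member on day 0, and there were 2 on day 3, 3 on day 6 and 6 on each of days 9 and 12.

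Pbr017424.1 was the most abundant member. It lies on the minus strand of scaffold26.0 (798478 to 799682, in the coordinates of the deposited table), and its coding length is 468 bases. Its level was 65.7, 148 and 1213 CPM on day 0, 133, 169 and 105 CPM on day 3, 888, 144 and 885 CPM on day 6, 2447, 3257 and 1848 CPM on day 9 and 3318, 3319 and 2571 CPM on day 12. The day 0 libraries spread widely, replicate 3 standing above both others and above every library of days 3 and 6, and on day 6 replicate 2 stayed among the day 3 values. Per length it was at 1016 ± 1368 FPKM on day 0, 5379 ± 1511 FPKM on day 9 and 6559 ± 922 FPKM on day 12 (SD, n = 3 each), which ranked 65, 12 and 4 among all models. By edgeR with all libraries it passed in no comparison with day 6: the log2 fold change was 0.47 ± 0.83 for day 6 against day 0 (SE, adjusted p = 0.781), 2.05 ± 0.86 for day 9 against day 6 (adjusted p = 0.0746) and 2.26 ± 0.87 for day 12 against day 6 (adjusted p = 0.0820, edgeR quasi-likelihood test, Benjamini-Hochberg). DESeq2 called it higher on day 9 than on day 6 (log2 fold change 2.05, adjusted p = 0.0337) and on day 12 than on day 6 (2.25, adjusted p = 0.0296). Without day 6 replicate 2, edgeR gave 0.94 for day 6 against day 0 (adjusted p = 0.516), 1.57 for day 9 against day 6 (adjusted p = 0.179) and 1.79 for day 12 against day 6 (adjusted p = 0.190). Over the 13 alternatives the adjusted p ran from 0.0337 to 0.179 for day 9 against day 6 and from 0.0296 to 0.190 for day 12 against day 6. Without day 0 replicate 3 it was higher on day 6 than on day 0 by 2.69 on the log2 scale (adjusted p = 0.0267). Over the 13 alternatives for day 6 against day 0 the adjusted p ran from 0.0267 to 0.991, and without day 0 replicate 1 the sign turned (-0.05).

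Pbr010509.1, with a coding length of 771 bases in 1 block on the plus strand of scaffold171.0 (104266 to 105036), was next in abundance. It was at 12.6, 13.8 and 104 CPM on day 0, 22.7, 35.7 and 34.4 CPM on day 3, 50.3, 34.7 and 136 CPM on day 6, 344, 465 and 256 CPM on day 9 and 231, 216 and 219 CPM on day 12. Here too day 0 replicate 3 was the high library of its day, and the day 12 libraries all lay below those of day 9. Day 9 was higher than day 6 by 2.34 ± 0.70 on the log2 scale (SE, edgeR, adjusted p = 0.0177), a call lost when day 6 replicate 1 (adjusted p = 0.0535), day 6 replicate 2 (0.0619) or day 9 replicate 2 (0.0509) was left out; over the 13 alternatives the adjusted p ran from 0.00661 to 0.0619. Day 12 against day 6 did not pass (1.59 ± 0.69, adjusted p = 0.123), and it passed in 1 of 13 alternatives, without day 6 replicate 3 (adjusted p = 0.0387). Day 6 against day 0 did not pass either (0.81 ± 0.68, adjusted p = 0.506), while without day 0 replicate 3 it did (log2 fold change 2.57, adjusted p = 0.0116). Without day 6 replicate 2 the log2 fold changes were 1.15 for day 6 against day 0, 1.99 for day 9 against day 6 and 1.24 for day 12 against day 6. A model without the Pbr prefix starts at the next base on the same strand (105037 to 105720). It was at 3.06, 4.52 and 37.4 CPM on day 0, with replicate 3 again the high library, and its later means were 9.41 ± 2.46 CPM on day 3, 25.7 ± 18.1 CPM on day 6, 211 ± 97.3 CPM on day 9 and 75.8 ± 17.3 CPM on day 12 (SD, n = 3 each). Whether these 2 rows count 1 transcript was not tested.

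The other two named members had the lowest ratios of day 6 to day 0. Pbr026429.1, 642 coding bases in 1 block on the plus strand of scaffold428.0 (193736 to 194377), had 0.911, 0.209 and 1.46 CPM on day 0, 0.912, 1.24 and 0.209 CPM on day 3, 0.607, 0.194 and 0.751 CPM on day 6, 18.6, 9.96 and 6.42 CPM on day 9 and 14.5, 3.40 and 5.03 CPM on day 12. The day 9 and day 12 libraries lay apart from all 9 earlier ones, with replicate 1 highest on both days. Its log2 fold change was 4.53 ± 0.79 for day 9 against day 6 (SE, adjusted p = 5.05e-04) and 3.86 ± 0.78 for day 12 against day 6 (adjusted p = 0.00339), both called in all 13 alternatives, and for day 6 against day 0 it was -0.67 ± 0.87 (adjusted p = 0.687), by edgeR. These changes were 4.14, 3.46 and -0.28 without day 6 replicate 2.

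Pbr028227.1 has 315 coding bases on the minus strand of scaffold468.0 (43688 to 44237). It had 0.0651, 0.557 and 3.48 CPM on day 0, 0.243, 0.482 and 0 CPM on day 3, 0.607, 0.259 and 1.04 CPM on day 6, 7.57, 12.5 and 4.34 CPM on day 9 and 8.47, 7.26 and 5.82 CPM on day 12. The libraries of days 9 and 12 all lay above day 0 replicate 3, the highest of the earlier ones. The low levels are few reads, 18 at most in a day 6 library. Day 9 against day 6 gave 3.72 ± 0.90 on the log2 scale (SE, adjusted p = 0.00507) and day 12 against day 6 gave 3.46 ± 0.89 (adjusted p = 0.0144), called in all 13 alternatives each by edgeR or DESeq2. Day 6 against day 0 did not pass (-1.02 ± 0.94, adjusted p = 0.546), and without day 0 replicate 3 its sign turned (1.15, adjusted p = 0.499). The changes without day 6 replicate 2 were 3.34 for day 9 against day 6, 3.08 for day 12 against day 6 and -0.64 for day 6 against day 0.

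**Figure D2:**
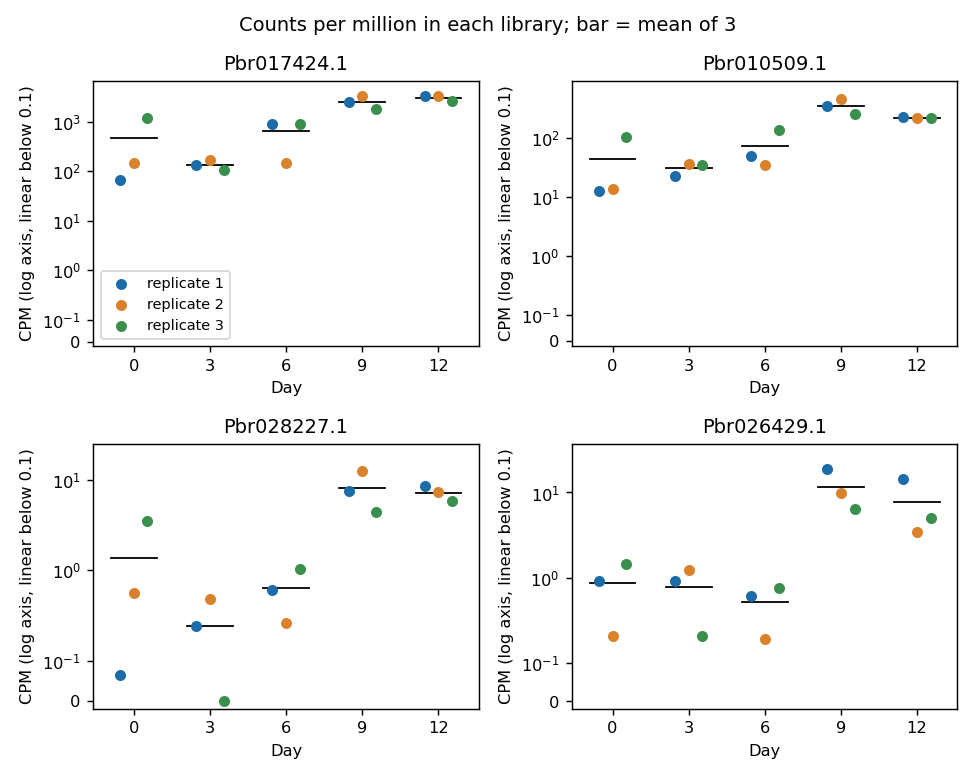
CPM of the 4 named members in every library by day (log axis, linear below 0.1), with replicates in colour and the mean of 3 as a bar. Day 0 replicate 3 lies above both other day 0 libraries in each panel, and the libraries of days 9 and 12 lie above all of days 0 and 3.

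Day 6, between the low and the high days, was set against the days on either side. In a fit over all 29134 models, 11 of the 41 members (26.8%) were called higher on day 6 than on day 0 at an FDR under 0.05 and none lower, while 5.30% of all models were called higher (edgeR quasi-likelihood test, Benjamini-Hochberg). The day 0 libraries were used to choose the members, as low ones, which favours such calls, so nothing is read from the gap between these shares. The 11 log2 fold changes ran from 1.20 to 3.21. The median over the 41 members was 1.15, or 1.40 without day 6 replicate 2, and over all models tested it was -0.00322. In fitted sign 38 members were above day 0, where 49.6% of all models were. In 11 members all 3 day 6 libraries lay above all 3 of day 0, against 8.96% of all models tested, in 5 members they lay above all 6 libraries of days 0 and 3, against 1.33%, and in 2 of these also below all 6 of days 9 and 12, against 0.0755%. With day 6 replicates 1 and 3 alone, these counts were 23 members above day 0, against 13.1% of all models, 21 above days 0 and 3, against 4.88%, and 13 also below days 9 and 12, against 0.360%.

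The largest change that passed belonged to a model of 462 coding bases on the minus strand of scaffold2.0 (3716924 to 3717385). It had 6.07, 3.63 and 31.0 CPM on day 6, against 1.56, 0.835 and 2.16 CPM on day 0, and edgeR gave 3.21 ± 0.72 on the log2 scale (SE, adjusted p = 0.0151), or 3.66 without day 6 replicate 2 (adjusted p = 0.00341). All 3 day 6 libraries were above day 0, with replicate 3 far above the other two. A model of 216 coding bases on the plus strand of scaffold916.0 (63313 to 63528), the shortest member, also passed. It had 2.41, 3.41 and 3.06 CPM on day 0, 6.53, 4.21 and 8.89 CPM on day 6, 20.2, 23.3 and 21.9 CPM on day 9 and 26.2, 25.1 and 21.1 CPM on day 12. Its libraries moved up in steps without overlap from day 0 to day 6 and from day 6 to day 9, by 1.20 ± 0.23 on the log2 scale (SE, edgeR, adjusted p = 0.00702) and by 1.80 ± 0.22 (adjusted p = 2.68e-05). These were 1.44 (adjusted p = 6.68e-04) and 1.56 (adjusted p = 3.33e-05) without day 6 replicate 2.

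The day 6 count depended on single libraries and on the spread shared over days. Leaving out day 0 replicate 1, 2 or 3 gave 7, 2 or 13 members, against 3.82%, 1.94% or 4.66% of all models. Leaving out day 6 replicate 2 gave 15, against 6.19%, and leaving out day 6 replicate 3 gave 6, against 3.70%. When only the libraries of days 0 and 6 entered the fit, edgeR called no member and 1 model of 29134, with a smallest adjusted p over the members of 0.0990.

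Against day 3, edgeR called no member higher on day 6, and no model of the whole table (0%). The smallest adjusted p over the members was 0.207. An unadjusted p under 0.05 was found in 26 of the 41, all of them higher. Over all 29134 models it was found in 4111, of which 2374 were higher. The median log2 fold change was 1.39 over the members and 0.0143 over all models. The day 3 libraries too were used to choose the members, which favours values above them on day 6. DESeq2 called 10 members higher, with 1.20% of all models. Without day 6 replicate 2, edgeR called 18 members higher, with 3.42% of all models, and the median was 1.70. Without day 6 replicate 3 it called no member higher, with 0% of all models, and the median was 0.84. Nothing is read from these shares either.

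Most members had their lowest day 6 value in the same library. Replicate 2 was the lowest of the 3 in 37 of 41 members and the highest in none, and replicate 3 was the highest in 31 and the lowest in none. These ranks were not counted over all models. Across genes replicate 2 was also the closest of the 3 to day 3 (mean r of 0.975), and the members were chosen as low on day 3. The choice thus favours such an order, and nothing is read from it. In 18 members replicate 2 lay under both others by more than 2-fold, against 2.63% of all models tested. On the log2 scale from the mean of days 0 and 3 (0%) to the mean of days 9 and 12 (100%), the median member stood at 39.7% in replicate 1, at 1.62% in replicate 2 and at 57.1% in replicate 3. Replicate 1 exceeded all 6 libraries of days 0 and 3 in 22 members, against 14.9% of all models tested, replicate 2 in 5, against 10.4%, and replicate 3 in 35, against 19.8%. The labels give no date, culture or batch by which the 3 day 6 libraries differ.

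**Figure D3:**
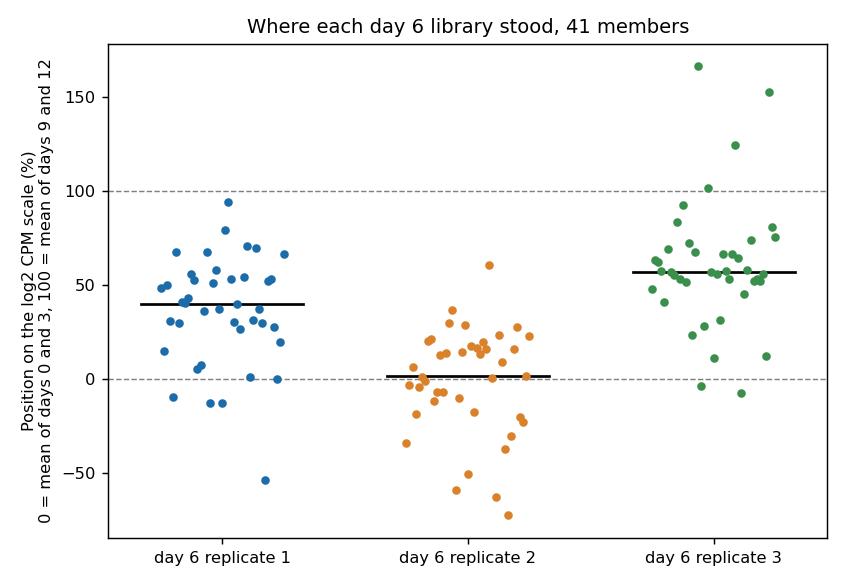
Position of each member (points) in each day 6 library on its own log2 CPM scale, where 0 is the mean of days 0 and 3 and 100 the mean of days 9 and 12; the bar is the median of 41. The medians are 39.7% in replicate 1, 1.62% in replicate 2 and 57.1% in replicate 3.

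Days 9 and 12 were used to choose the members, as high days, and are set against day 6 here as a description. Day 9 was higher than day 6 in 31 of 41 members (75.6%), against 17.8% of all models, with log2 fold changes from 0.94 to 4.53 among those called. Day 12 was higher than day 6 in 28 members (68.3%), against 10.6% of all models, with changes from 0.88 to 3.86. No member was called lower in either comparison. The choice favours these calls and the comparisons share the day 6 libraries, so the counts are not evidence about the members and nothing is read from the gap to all models. In 30 members all 3 day 6 libraries lay below all 6 libraries of days 9 and 12, against 5.61% of all models tested, and with day 6 replicates 1 and 3 alone this was also so in 30, against 8.39%. By edgeR with all libraries, both steps were called in 23 members, day 9 alone in 8 and day 12 alone in 5. Of the 23, 19 were not called on day 6 against day 0. These patterns of calls, and that of neither step below, were not counted over all models, so nothing is read from them. Without day 6 replicate 2 the counts of calls were 21 members for day 9, against 15.4% of all models, and 18 for day 12, against 8.96%. Without day 6 replicate 3 they were 35 for day 9, against 17.7%, and 31 for day 12, against 10.5%. Without day 12 replicate 1, 18 members were called higher on day 12 than on day 6, against 7.38%.

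In the same fit neither step was called in 5 members, of which 3 had been called higher on day 6 than on day 0. These 3 were the model on scaffold2.0 described above, a model of 429 coding bases on the minus strand of scaffold124.0 (75883 to 76311) and a model of 1068 coding bases on the plus strand of scaffold197.0 (367273 to 370067). The one on scaffold124.0 had 176, 151 and 159 counts on day 9, against 46, 19 and 171 counts on day 6, where the highest of each day is 12.6 and 9.87 CPM. The one on scaffold197.0 had 56, 55 and 84 counts on day 9, against 27, 35 and 111 counts on day 6, where the highest of each day is 5.28 and 6.41 CPM. In both, day 6 replicate 3 was at or above the lowest later libraries and the other day 6 libraries were below them.

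The other two of these 5, called in no comparison by edgeR with all libraries, were Pbr017424.1 and a model of 531 coding bases on the minus strand of scaffold181.0 (299693 to 300636). The model on scaffold181.0 was high in 1 day 6 library: it had 3, 2 and 172 counts on day 6, or 0.228, 0.130 and 9.93 CPM, against 0.260, 0.139 and 0.139 CPM on day 0. Its day 6 replicate 3 was above every library of day 9 (3.07, 2.26 and 1.70 CPM) and day 12 (3.13, 2.95 and 3.13 CPM). The log2 fold change for day 6 against day 0 was 4.26 ± 1.29 (SE, adjusted p = 0.0546, edgeR), the largest fitted value among the 41, and it was called without day 6 replicate 2 (4.82, adjusted p = 0.0121) and by DESeq2 (4.32, adjusted p = 0.00399).

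**Figure D4:**
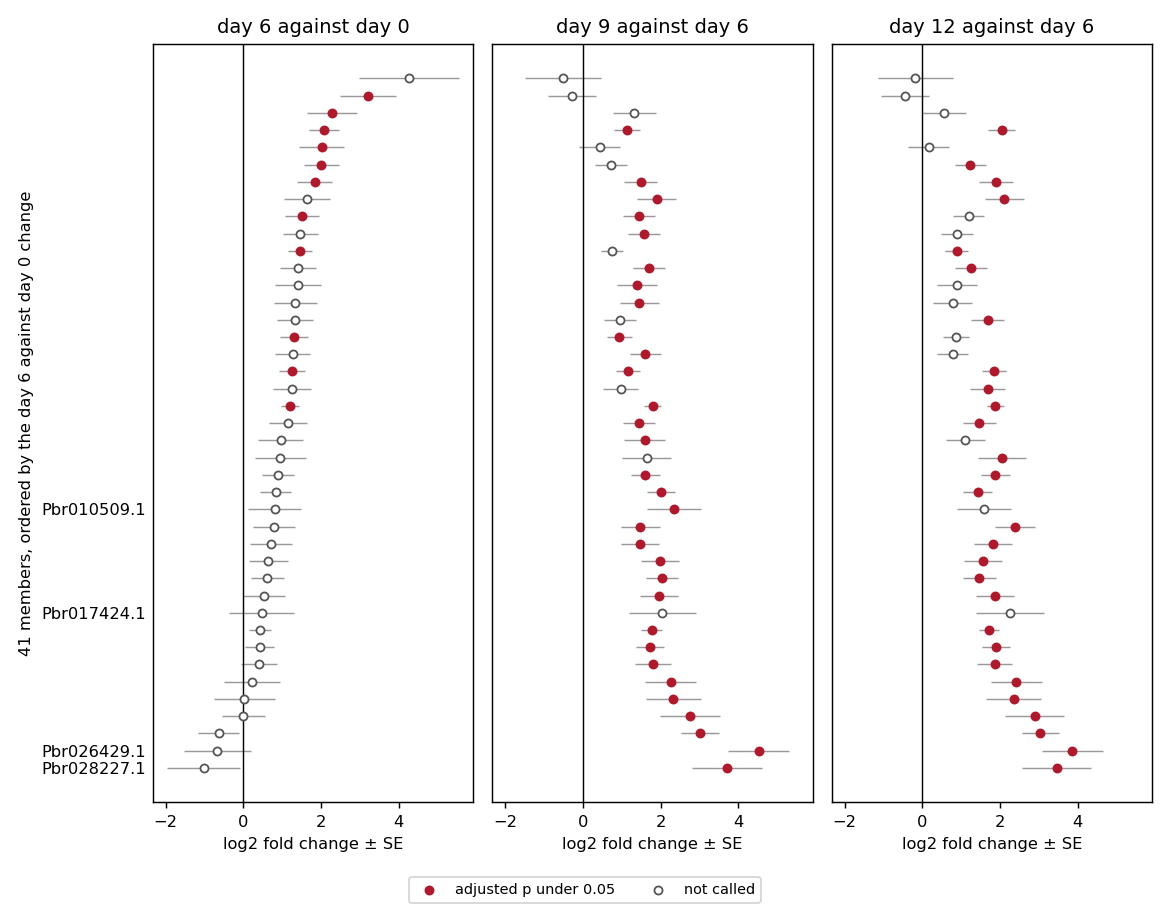
Log2 fold change with its standard error for the 41 members in day 6 against day 0, day 9 against day 6 and day 12 against day 6 (edgeR); filled points had an adjusted p under 0.05. Filled points number 11, 31 and 28, and Pbr026429.1, at -0.67 in the day 6 against day 0 panel, has the largest change in each of the others (4.53 and 3.86). The panels share the day 6 libraries.

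On the plateau itself the members did not move one way. Day 12 means were above day 9 in 23 members and below in 18, with ratios from 0.589 to 1.97 and a median of 1.07, inside the limits that the choice had set. All 3 day 12 libraries lay above all of day 9 in 10 members, against 37.1% of all models tested, and below them in 9, against 28.2%, and in 22 they overlapped. The highest ratio, 1.97, belonged to a model on the minus strand of scaffold295.0 (90232 to 91692) with 12.1, 13.2 and 13.0 CPM on day 12, against 7.57, 5.27 and 6.67 CPM on day 9. A model of 801 bases on the plus strand of scaffold489.0 (79818 to 80618) had the lowest, with 2.15, 2.55 and 2.13 CPM on day 12, against 4.86, 3.10 and 3.65 CPM on day 9. In both models the libraries of the 2 days did not overlap. Day 3 means were below day 0 in 27 members and above in 14, and the libraries of days 3 and 0 overlapped in 34. In the other 7 they did not overlap, against 32.5% of all models tested.

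The spread between libraries was wide while the members were low and narrower on the plateau. The choice, with every library of days 9 and 12 above every library of days 0 and 3, favours a narrow spread there. The median coefficient of variation over the members was 58.5% on day 0, 43.2% on day 3, 53.4% on day 6, 17.9% on day 9 and 11.6% on day 12. Over all models tested it was 15.9% on day 0, 13.0% on day 3, 21.4% on day 6, 13.7% on day 9 and 9.39% on day 12. The members are sparser than these, with a median of 4.25 CPM over all libraries against 11.5 CPM for the Pbr models tested, and the share of counting error in the difference was not tested. Day 0 replicate 3 was the highest day 0 library in 21 members, a rank not counted over all models. It was more than 2-fold above both others in 9, against 2.26% of all models tested. Other libraries stood apart in as many members: day 0 replicate 1 was more than 2-fold under both others in 9, against 2.61%. Day 3 replicate 3 was so in 10, against 2.57%. The summed level of the members followed the most abundant one: it was 172, 234 and 1428 CPM on day 0, and 107, 85.9 and 214 CPM without Pbr017424.1. Without it the sum was 136 ± 68.9 CPM on day 0, 131 ± 25.4 CPM on day 3, 294 ± 168 CPM on day 6, 941 ± 175 CPM on day 9 and 888 ± 36.4 CPM on day 12 (SD, n = 3 each).

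The members were short models. Their coding length ran from 216 to 2250 bases with a median of 618, against 1161 for the 27440 Pbr models tested. Of the 41, 24 (58.5%) were at most 702 bases long, the lower quartile of the Pbr models tested, where 25.1% of those were. In 19 members (46.3%) the coding length equalled the span on the scaffold, so the model is 1 block without introns, against 19.5% of the Pbr models tested. The plus strand held 29 of the 41 members (70.7%), against 13720 of the 27440 Pbr models tested. These shares describe the 41 and were not tested.

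Length bears on day 9, on which short models in the whole table read higher. At the members' lengths the smooth trend of log2 CPM with length differed between day 9 and day 0 by -0.44 to 0.50, with a median of 0.33, and between day 12 and day 0 by -0.06 to 0.03. With this trend taken out of each library, day 9 was at a median of 4.74 times day 0 over the members (lowest 3.07), where it was 5.70 before. Then 31 members were still at least 4-fold above day 0 on day 9, and 40 had all libraries of days 9 and 12 above those of days 0 and 3. The median ratio of day 12 to day 9 was 1.23 in place of 1.07, and 28 members had the higher mean on day 12. The whole set of conditions was then met by 28 models, of which 27 were among the 41. Day 9 against day 6 was called in 23 members with the trend removed, against 12.5% of all models, and day 12 against day 6 in 26, against 10.8%.

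**Figure D5:**
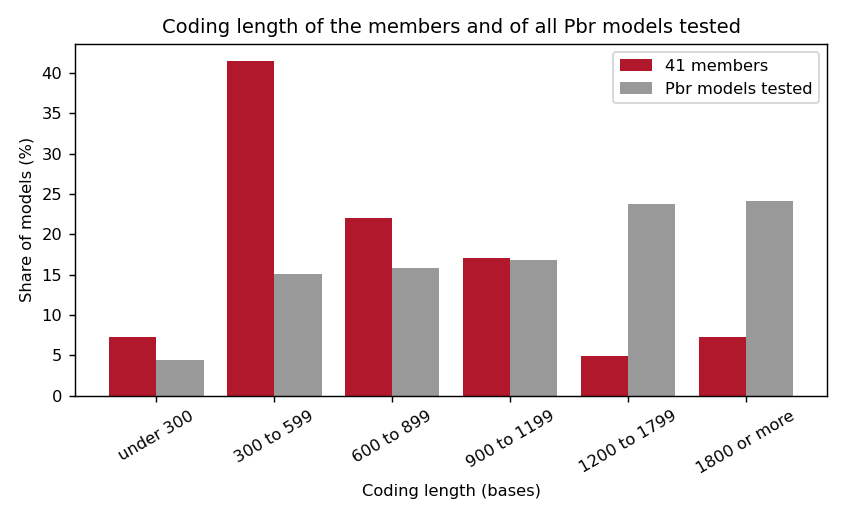
Share of the 41 members and of the 27440 Pbr models tested (bars, %) by coding length in bases. From 300 to under 600 bases lie 41.5% of the members and 15.1% of the Pbr models tested, and at 1800 bases or more 7.32% and 24.1%.

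The members lay on 38 of the 1658 scaffolds in the table, and 3 scaffolds held 2 each. No member overlapped another model of the table. On scaffold124.0 the model from 75883 to 76311 and a member of 1812 coding bases from 93816 to 97696 were neighbours, both on the minus strand and 17505 bases apart. The longer one was at 15.6, 12.9 and 16.6 CPM on day 12, against 0.651, 1.11 and 4.04 CPM on day 0. On scaffold428.0, Pbr026429.1 and a member of 588 bases (181494 to 182081), both on the plus strand, had 1 model between them, with no count in any library.

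Of the 78 other models next to a member, 53 were tested, and 9 of these (17.0%) had means on both day 9 and day 12 at least 2 times day 0, against 3.35% of all models tested. Among the 9 are the model that starts at the next base after Pbr010509.1 and models of very few reads. One of these had means of 0.158 CPM on day 0, 0.584 CPM on day 9 and 0.641 CPM on day 12. Another had 0.0449, 0.830 and 0.778 CPM on these days. The share describes these models and was not tested. Of the 9, 4 lay on the strand of the member. A member of 543 bases on the plus strand of scaffold850.0 (36246 to 36788) had such a model on either side, both on the plus strand. It stood at 5.40, 3.13 and 3.13 CPM on day 0, 20.6, 25.6 and 20.4 CPM on day 9 and 17.3, 18.7 and 16.3 CPM on day 12. The model before it (32410 to 32892) was at 7.51 ± 2.78 CPM on day 0, 23.3 ± 0.373 CPM on day 9 and 22.3 ± 1.56 CPM on day 12 (SD, n = 3 each). The model after it (41198 to 41644) was at 0.739 ± 0.413 CPM on day 0, 2.28 ± 0.207 CPM on day 9 and 1.89 ± 0.154 CPM on day 12 (SD, n = 3 each). All 3 models were lowest on day 3, at means of 2.21 CPM for the member and 2.65 and 0.219 CPM for those before and after it.

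Pbr028227.1 lies 469 bases from the end of a model on the opposite strand (41482 to 43219) that was far more abundant. That model had 3.25, 21.4 and 603 CPM on day 0, 466, 735 and 284 CPM on day 9 and 1231, 1181 and 1182 CPM on day 12. Both were highest among the day 0 libraries in replicate 3 and among the day 9 libraries in replicate 2. The counting's use of strand is not given in the sources used here, and whether reads of the abundant model entered the row of Pbr028227.1 was not tested.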

How the data were processed

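The authors deposited 1 table that gives, for each gene model, scaffold, strand, start, end and length, and for each of the 15 libraries counts and FPKM. The deposited counts are whole numbers and not normalized, by the file headers and the values. The authors' FPKM values were given back from counts, length and library total within a relative tolerance of 1e-04 for 97.6% of values above 0, and for 100.0% of the members' values. The reference was the *Pyrus bretschneideri* genome (series' design text), and the submitters' processing notes name HISAT. Versions, genome build, counting program and strand use were not given in the sources used here. Lengths of Pbr models are multiples of 3, so they are coding lengths. Whether members exchanged reads with near-identical models was not tested.

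Counts were tested in edgeR 4.0.16 (R 4.3.3): filterByExpr by day left 29134 models, all 41 members among them; TMM factors ran from 0.933 to 1.06; glmQLFit and glmQLFTest used all 15 libraries, 10 residual and 3.26 prior degrees of freedom; p-values were Benjamini-Hochberg adjusted over all models and called under 0.05. A standard error is the log2 fold change divided by the square root of F. DESeq2 1.42.0 was an alternative. The length trend was a lowess curve (span 0.3) of log2 CPM, prior count 2, against log2 length per library. In simulated counts for day 6 against day 0 over 29134 models, 46 of 100 models raised 2-fold and 87 of 100 raised 4-fold were recovered, and 8 of 141 calls were unchanged models. The raised models were drawn from all models tested, with the same dispersion on every day and no shift shared within a library. In the data day 6 spread most and the members are sparser, so these rates may not hold for the members. CPM in the text uses library totals, without TMM.

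The members, the comparisons and the lists were chosen with earlier results of these data known. Named are the 2 members with the highest mean CPM over days 9 and 12 and the 2 with the lowest ratio of day 6 to day 0; other members are given by position, chosen after their values were seen. Lists by gene description were not used, as no descriptions were given. Same-numbered replicates were not treated as pairs, and no column of values was left unused.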

Additional observations from a re-analysis of the deposited data

How the results depend on the processing

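The number of models meeting the conditions stayed within 1.5 times the 41 in all alternatives but 1: it was 96 with a 3-fold limit, all 41 included, and 35 to 47 with 1 library left out. Which models met them was less stable than their number. Without day 0 replicate 1, 2 or 3 the conditions left 47, 35 or 47 models, with 29, 26 or 28 of the 41 among them. Members called higher on day 6 than on day 0 (11) numbered 2 (1.94% of all models) to 15 (6.19%) with 1 library left out. They numbered 0 (0.00343%) when only those 2 days entered the fit. Members called higher on day 6 than on day 3 (0) numbered 0 (0% of all models) to 18 (3.42%) with 1 library left out. With DESeq2 they numbered 10 (1.20%). Members called higher on day 9 than on day 6 (31) numbered 21 (15.4% of all models) to 35 (17.7%) with 1 library left out. With the length trend removed and the replicate block added they numbered 20 (12.1%). Members called higher on day 12 than on day 6 (28) numbered 18 to 31. The 18 stood against 8.96% of all models without day 6 replicate 2 and 7.38% without day 12 replicate 1, and the 31 against 10.5%. Some fits held fewer samples, and the causes of these changes were not tested.

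Same-numbered libraries of days 6 and 0 correlated in their deviations from the day means at 0.133, 0.166 and 0.0914, each best with its own number. Those of the other comparisons correlated at -0.0816 to 0.0518. The numbers were not taken as pairs in the main fit, and for days 6 and 0 these correlations do not settle that choice. With the replicate block, 8, 0, 32 and 27 members were called in the comparisons in the order above. The shares of all models were 4.67%, 0%, 17.5% and 10.4%. For the 4 named members, 198 of 208 alternative values kept direction and side of the threshold, 3 lost a call, 5 gained one and 2 changed sign: Pbr017424.1 (-0.05 without day 0 replicate 1, and -0.05 to 2.69 over the libraries left out) and Pbr028227.1 (1.15 without day 0 replicate 3, and -1.62 to 1.15), both log2 fold changes for day 6 against day 0. Depth limits the low days, since 12 members had under 30 counts over day 0.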
